A study of Mus musculus with 12 samples.

Results

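The genes described here are 9 integrin chains of leukocytes (the alpha chains Itgam, Itgax, Itgal, Itga4, Itga5 and Itgav and the beta chains Itgb1, Itgb2 and Itgb7) and Icam1, the counter-receptor of several of them. They were chosen by name, with earlier results of these data known. Each was followed through every probe set that names it alone, 27 probe sets in all. The 10 genes stand among 18193 genes measured on the same arrays. Where a gene had more than 1 probe set (5 of the 10), the one with the highest mean signal represented it, and the others are given beside it.

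Gene expression had been measured in bone marrow-derived macrophages (BMDMs), which are cultured from marrow precursors, of WT and Nos2-/- mice. The latter carry a targeted allele of the inducible NO synthase in all cells. WT mice were C57BL/6 and Nos2-/- mice were B6.129P2-Nos2tm1Lau/J, and the methods give an age of 6 to 10 weeks with matched age and sex. Stimulated cells were kept for 8 h with LPS, a bacterial cell wall component (100 ng/mL), and IFNγ (50 ng/mL), whereas the remaining cells received vehicle (PBS) according to the methods and were collected before stimulation according to the sample labels. They are called untreated here. Each of the 4 groups had 3 arrays, described as biological replicates. The sources used here do not say whether these came from separate mice, so the p-values measure the spread between these arrays only.

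Integrins are cell surface receptors made of 1 alpha and 1 beta chain, and a chain reaches the surface only with a partner. Itgb2 is the shared partner of Itgal, Itgam and Itgax. Itgal with Itgb2 forms LFA-1, which binds Icam1, Itgam with Itgb2 forms Mac-1, the receptor for the complement fragment iC3b, and Itgax with Itgb2 forms a further complement receptor. Itgb1 pairs with Itga4 to bind Vcam1 and fibronectin and with Itga5 to bind fibronectin. Itga4 also pairs with Itgb7, whose ligand is Madcam1, and Itgav pairs with several beta chains to bind vitronectin and latent TGF-β. In macrophages these receptors serve adhesion, migration and the uptake of opsonized particles.

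All values are log2 signals that the authors computed with RMA, in which 1 unit is a doubling of signal. They can be compared between arrays for 1 probe set but not between probe sets. A difference between groups is a difference of these log2 signals with the standard error (SE) of the limma fit, and a gene was called where its Benjamini-Hochberg adjusted p over all 18193 genes was under 0.05. Of 8 macrophage markers 7 were measured, with log2 signals over all arrays of 14.28 to 14.58 for Lyz2, 13.61 to 14.12 for Csf1r, 13.10 to 14.01 for Cd14, 12.22 to 13.26 for Cd68, 12.45 to 12.93 for Adgre1, 11.61 to 13.12 for Fcgr1 and 7.38 to 8.37 for Mertk. After stimulation 2 of these 7 rose and 5 fell in each genotype (median -0.32), with 58.0% (WT) and 54.5% (Nos2-/-) of all genes called. Nos2 itself rose from 5.50 ± 0.14 (SD, n = 3) to 9.73 ± 0.09 in WT and from 5.31 ± 0.14 to 7.69 ± 0.22 in Nos2-/- cells, and since the sources used here do not say whether its probes lie in the deleted part, it is no check of the labels. No member lies on chromosome 11, which carries Nos2.

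Stimulation moved most of these genes, and it moved them in both directions. In WT cells 4 of the 10 rose (Itgal, Icam1, Itga5 and Itgb7) and 3 fell (Itgav, Itgax and Itga4), while 58.0% of all genes were called in the same comparison. In Nos2-/- cells the same 4 rose, and Itgav, Itgax and Itgb2 fell, with 54.5% of all genes called. With 7 of 10 members called in each genotype beside these shares, the counts show nothing particular to the group. When stimulated cells of the genotypes were compared, 1 member was called, Itga4, which was higher in Nos2-/- cells, and 2.94% of all genes were called. Between the untreated genotypes 0 members were called by limma, none of them with an unadjusted p under 0.05, and 0.0110% of all genes were called.

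**Figure D1:**
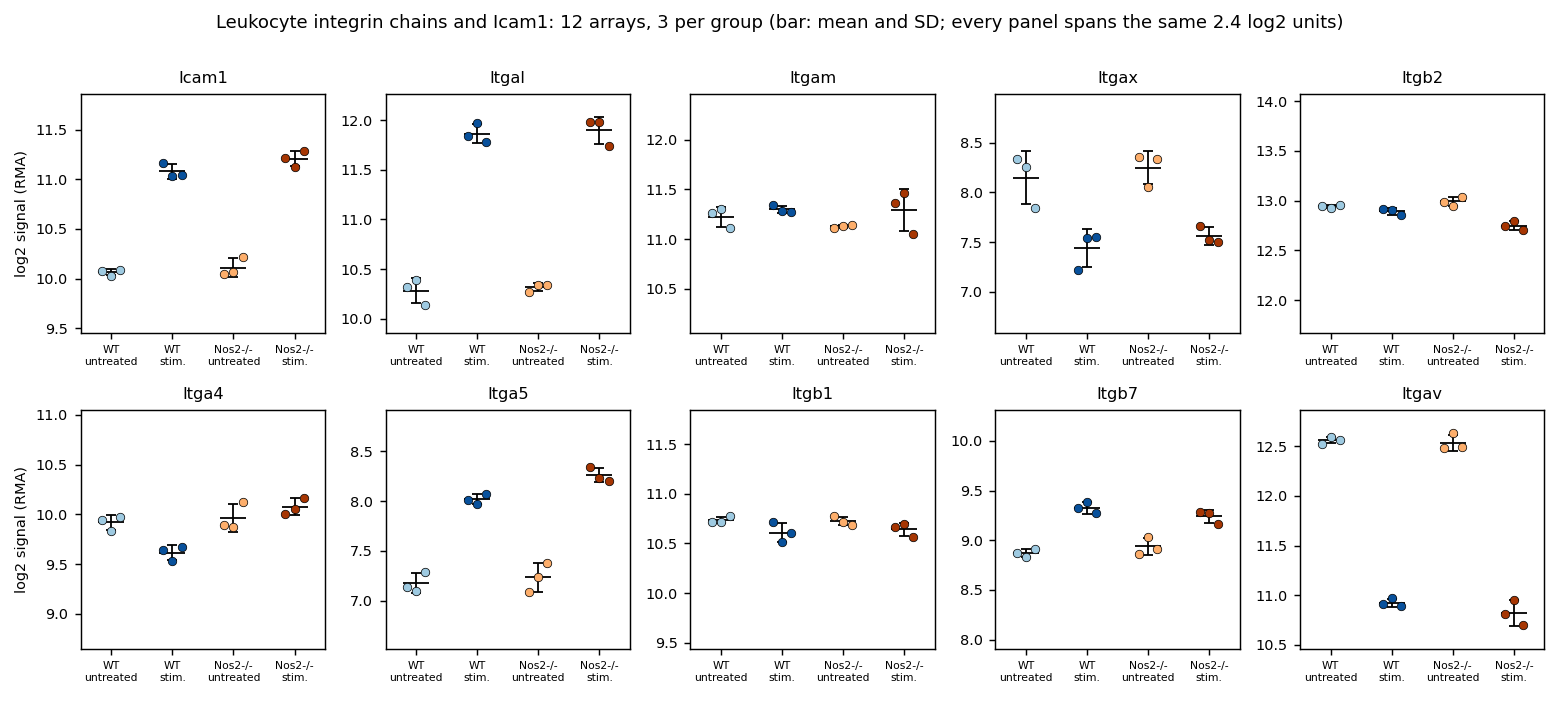
Log2 signal of each gene on each of the 12 arrays (points, 3 per group) with the group mean and SD (bars); every panel spans 2.4 log2 units, so vertical distances can be compared between panels. Itgal and Icam1 rose and Itgav fell without overlap in both genotypes, and stimulated WT arrays lay below all other arrays for Itga4.

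Icam1, the ligand of the group, rose about as much in both genotypes. On the WT untreated arrays it read 10.08, 10.03 and 10.09 and on the WT stimulated arrays 11.17, 11.03 and 11.05. On the Nos2-/- untreated arrays it read 10.04, 10.07 and 10.22 and on the Nos2-/- stimulated arrays 11.22, 11.13 and 11.28. Every stimulated array lay above every untreated one, and the genotypes overlapped in both states. The rise was 1.02 (SE 0.07, adjusted p = 1.73e-08), or 2.02-fold, in WT and 1.10 (SE 0.07, adjusted p = 6.82e-09), or 2.14-fold, in Nos2-/- cells. The difference between these responses was 0.08, with a 95% confidence interval from -0.13 to 0.30 (adjusted p = 0.832).

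Icam1 lies on chromosome 9, from 21015940 to 21028814 on the plus strand of GRCm38.p6. The 250 bases before its annotated start (chr9:21015690-21015939, from RefSeq) are shown because LPS and IFNγ are known to act through factors of the NF-kB and STAT families. A motif of each family was searched there on both strands. The capitals mark a match to GGAAATTCC, an NF-kB type motif, and a match to TTCNNNGAA, the GAS motif of STAT factors, which do not overlap.
Icam1 promoter: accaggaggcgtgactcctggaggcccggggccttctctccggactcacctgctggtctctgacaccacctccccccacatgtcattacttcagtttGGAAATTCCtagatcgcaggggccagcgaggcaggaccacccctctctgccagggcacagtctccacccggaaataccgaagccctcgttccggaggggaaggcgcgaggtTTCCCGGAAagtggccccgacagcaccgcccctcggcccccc
The first match begins 153 bases and the second 42 bases before the start. Of 32851 mouse promoter windows of the same length, 0.286% hold the first motif and 7.02% the second. The motifs were chosen for the search of this promoter, so these shares do not set Icam1 apart. The other 7 members with an entry in the promoter table hold neither in their windows, and the table gave no entry for Itgal and Itgb2. The windows of Itgav and Itgb7 lie within the annotated gene, and that of Itgax runs past the annotated gene start. A match is a description of the letters and not a site of binding.

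Itgal, the alpha chain of LFA-1 and so the receptor of Icam1, rose more than any other of the 10 genes in both genotypes. Its WT untreated arrays read 10.32, 10.39 and 10.14 and its WT stimulated arrays 11.84, 11.97 and 11.78. Its Nos2-/- untreated arrays read 10.27, 10.34 and 10.34 and its Nos2-/- stimulated arrays 11.98, 11.98 and 11.74. Treated and untreated arrays were far apart, and the genotypes overlapped. The rise was 1.58 in WT (SE 0.09, adjusted p = 1.41e-09) and 1.58 in Nos2-/- cells (SE 0.09, adjusted p = 1.26e-09), or 2.99-fold in each. The difference between the responses was -0.00 with a 95% confidence interval from -0.26 to 0.26. Its other probe set, 1425367_at, rose by 1.95 in WT and 1.90 in Nos2-/- cells.

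T and NK cells also carry Itgal, so markers of these cells were read on the same arrays. Of 7 listed, 5 were measured, and 2 of these rose in each genotype, with 58.0% (WT) and 54.5% (Nos2-/-) of all genes called. Their summed signal on the linear scale was 160 to 166 on WT untreated, 197 to 215 on WT stimulated, 155 to 170 on Nos2-/- untreated and 210 to 248 on Nos2-/- stimulated arrays. Cd247 rose from between 4.39 and 4.56 to between 5.57 and 5.75 in WT and from between 4.34 and 4.52 to between 5.61 and 6.43 in Nos2-/- cells. Cd3e rose by 0.23 in WT and Cd3d by 0.22 in Nos2-/- cells, and Cd3e, Cd3g, Cd3d and Ncr1 lay between 3.29 and 6.40 in log2 signal in all groups. RMA signals have no zero, and the part of such cells in the rise of Itgal was not tested. In these bulk samples fewer cells of a type and less RNA per cell cannot be told apart.

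Itgb2, the beta chain that Itgal, Itgam and Itgax share, was bright in every group, with 99.4% of all probe sets at or below its mean signal, and it moved little. It read 12.95, 12.92 and 12.96 on WT untreated, 12.92, 12.91 and 12.85 on WT stimulated, 12.99, 12.95 and 13.04 on Nos2-/- untreated and 12.74, 12.80 and 12.71 on Nos2-/- stimulated arrays. Only the Nos2-/- stimulated arrays lay below all arrays of the other groups. In Nos2-/- cells it fell by 0.24 (SE 0.06, adjusted p = 0.00233), to 0.845 of the untreated signal (-0.37 after quantile normalization). The WT difference was -0.05 (SE 0.06, adjusted p = 0.473), which after quantile normalization of the gene values was -0.19 and called (adjusted p = 0.00743). The stimulated genotypes differed by -0.14 (95% confidence interval -0.27 to -0.02, adjusted p = 0.245), and the difference between the responses was -0.19 (adjusted p = 0.43).

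Itgam, the alpha chain of Mac-1 and a common marker of myeloid cells, was not called in any comparison. Its group means were 11.23 ± 0.10 (SD, n = 3) in WT untreated, 11.30 ± 0.04 in WT stimulated, 11.13 ± 0.02 in Nos2-/- untreated and 11.29 ± 0.21 in Nos2-/- stimulated cells. The last group was the most spread, at 11.37, 11.46 and 11.05. The response was 0.07 in WT (95% confidence interval -0.13 to 0.27) and 0.16 in Nos2-/- cells (-0.03 to 0.36, adjusted p = 0.149). Without the third Nos2-/- stimulated array the latter was 0.29 and called (adjusted p = 0.00466), and with arrays centred on their medians it was 0.22 (adjusted p = 0.0494).

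Neutrophils carry Itgam and Itgb2 as well. Of 8 neutrophil markers 7 were measured, and 4 rose in WT and 3 in Nos2-/- cells, with 58.0% and 54.5% of all genes called. Their summed linear signal was 950 to 1430 on WT untreated, 5824 to 6041 on WT stimulated, 1159 to 1779 on Nos2-/- untreated and 7492 to 7806 on Nos2-/- stimulated arrays. S100a8, which stimulated macrophages also express, made most of it (12.25 to 12.71 in log2 signal on stimulated arrays), while S100a9 lay between 7.87 and 9.21 and Ngp between 7.67 and 8.66 over all arrays. Camp rose by 0.82 in WT and 0.96 in Nos2-/- cells and Mpo by 0.29 and 0.46, Cxcr2 rose by 0.23 in WT, and Mpo, Elane and Cxcr2 lay between 3.75 and 5.70 in all groups. The part of neutrophils in the values of Itgam and Itgb2 was not tested.

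Itgax, the alpha chain known as CD11c, fell by a similar amount in both genotypes. It read 8.34, 8.26 and 7.85 on WT untreated and 7.22, 7.55 and 7.55 on WT stimulated arrays. It read 8.35, 8.06 and 8.34 on Nos2-/- untreated and 7.67, 7.52 and 7.50 on Nos2-/- stimulated arrays. Stimulated arrays lay below untreated ones in each genotype, and the third WT untreated array was the untreated one closest to them. The signal fell by 0.71 in WT (SE 0.13, adjusted p = 0.000321) and by 0.69 in Nos2-/- cells (SE 0.13, adjusted p = 0.00041), to 0.612 and 0.621 of the untreated signal, and gave -0.45 in each genotype after quantile normalization. Dendritic cells carry Itgax as well. Of 7 dendritic cell markers 5 rose in WT and 2 in Nos2-/- cells and 0 fell, with 58.0% and 54.5% of all genes called. Their summed linear signal went from 223 to 235 up to 399 to 491 in WT. In Nos2-/- cells it went from 226 to 245 up to 500 to 608. Ccr7 was the brightest on stimulated arrays, at 7.49 to 8.54 in log2 signal, against 4.58 to 5.11 on untreated arrays. Flt3, Zbtb46, Dpp4, Xcr1, Siglech and Cd209a lay between 3.68 and 6.0 on all arrays. The part of dendritic cells in the values of Itgax was not tested.

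The genes for the alpha chains of the Itgb2 family lie on chromosome 7 of GRCm38.p6. Itgam (128062640 to 128118491), Itgax (128129526 to 128150657) and Itgad (128173933 to 128205504), for which no probe set of its own was measured, follow each other with no other protein-coding gene between them in the annotation. Itgal lies apart at 127296139 to 127335137. Stimulation raised Itgal, lowered Itgax and left Itgam uncalled. Itgb2 lies on chromosome 10 (77530329 to 77565708).

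**Figure D2:**
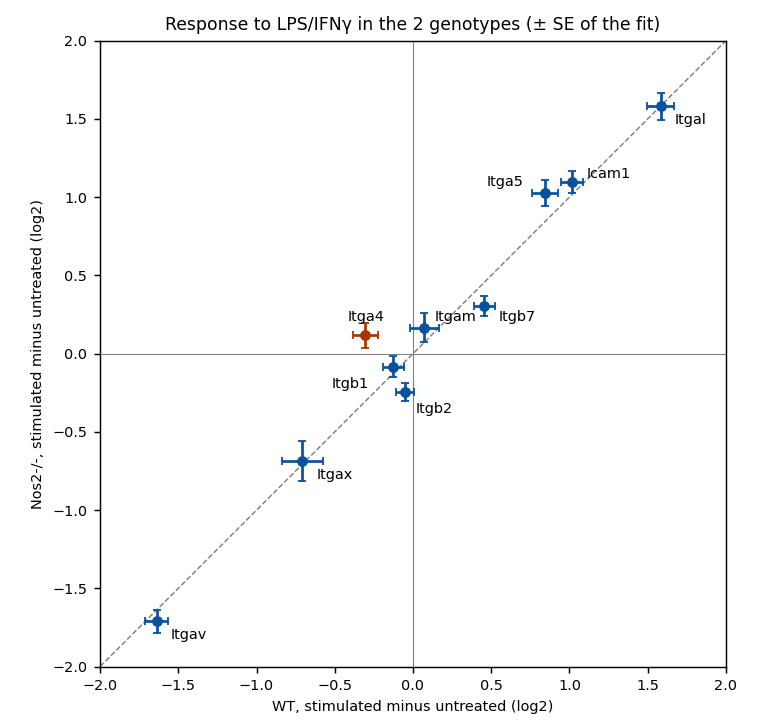
Response to LPS and IFNγ (stimulated minus untreated, log2) in WT (x axis) and Nos2-/- cells (y axis) for the 10 genes, with the SE of the fit as bars and the line of equal responses dashed. Itga4, in orange, lies at -0.30 in WT and 0.12 in Nos2-/- cells, while Itgal, Icam1, Itgax and Itgav lie near the line.

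Itga4, the chain that pairs with Itgb1 or Itgb7, was the member that differed between the stimulated genotypes. On the WT untreated arrays it read 9.94, 9.84 and 9.98 and on the WT stimulated arrays 9.64, 9.53 and 9.68. On the Nos2-/- untreated arrays it read 9.89, 9.87 and 10.12 and on the Nos2-/- stimulated arrays 10.01, 10.06 and 10.17. The 3 WT stimulated arrays were the lowest of the 12, and the Nos2-/- groups overlapped each other. In WT cells Itga4 fell by 0.30 (SE 0.08, adjusted p = 0.00515), to 0.81 of the untreated signal (-0.18 with averaged probe sets). In Nos2-/- cells the difference was 0.12 (SE 0.08, 95% confidence interval -0.06 to 0.29, adjusted p = 0.242). Stimulated Nos2-/- cells thus had 1.38-fold the signal of stimulated WT cells (0.46, SE 0.08, 95% confidence interval 0.29 to 0.64, adjusted p = 0.00506), and untreated cells differed by 0.04 (-0.13 to 0.22). The difference between the responses was 0.42 (SE 0.11, 95% confidence interval 0.17 to 0.67) but was not called over all genes (adjusted p = 0.134). In that comparison 0 of the 10 members were called by limma, beside 0.978% of all genes. An unadjusted p under 0.05 was seen for 2 members (Itga4 and Itgb2) and for 1825 of all 18193 genes.

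Itga4 has 5 probe sets, fitted with all 34945 probe sets that name 1 gene. Between the stimulated genotypes 3 of them were called higher in Nos2-/- cells, 1436037_at, which stands for the gene, by 0.46 (adjusted p = 0.00655), 1456498_at by 0.54 (adjusted p = 0.00668) and 1421194_at by 0.48 (adjusted p = 0.00587), and these were the only called ones among the 27 member probe sets, with 2.59% called among all. The probe set 1450155_at was higher by 0.42 without overlap of the arrays (adjusted p = 0.0534). The fifth, 1427615_at, was dim at a mean of 3.37 and differed by 0.06. For 1456498_at the WT stimulated arrays read 8.86, 9.02 and 9.16 and the Nos2-/- stimulated arrays 9.58, 9.61 and 9.48. For 1421194_at they read 6.79, 6.87 and 6.97 against 7.39, 7.30 and 7.38. Neither pair of groups overlapped.

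The probe sets of Itga4 agreed less well on the response within each genotype. In WT cells 1456498_at fell by 0.47 and 1421194_at by 0.22, whereas 1450155_at was 0.11 higher and not called (adjusted p = 0.379). In Nos2-/- cells 1456498_at rose by 0.24 (adjusted p = 0.0488), 1421194_at by 0.39 (adjusted p = 0.00116) and 1450155_at by 0.64 (adjusted p = 0.000127), and 1436037_at, at 0.12, was not called. The difference between the responses was called for 1456498_at (0.71, SE 0.14, adjusted p = 0.027) and 1421194_at (0.61, SE 0.12, adjusted p = 0.027), where 0.793% of all probe sets were called. Each of these calls was lost when any of 8 of the 12 arrays was left out, for 1456498_at the first or second array of any group (adjusted p up to 0.0941, differences of 0.63 to 0.71) and for 1421194_at the same arrays with the third in place of the second Nos2-/- stimulated array (adjusted p up to 0.0916, differences of 0.55 to 0.61). Both calls were also lost in a linear model without moderation (adjusted p = 0.114 and 0.0828). Probe sets of a gene read the same RNA samples and are not replicates.

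**Figure D3:**
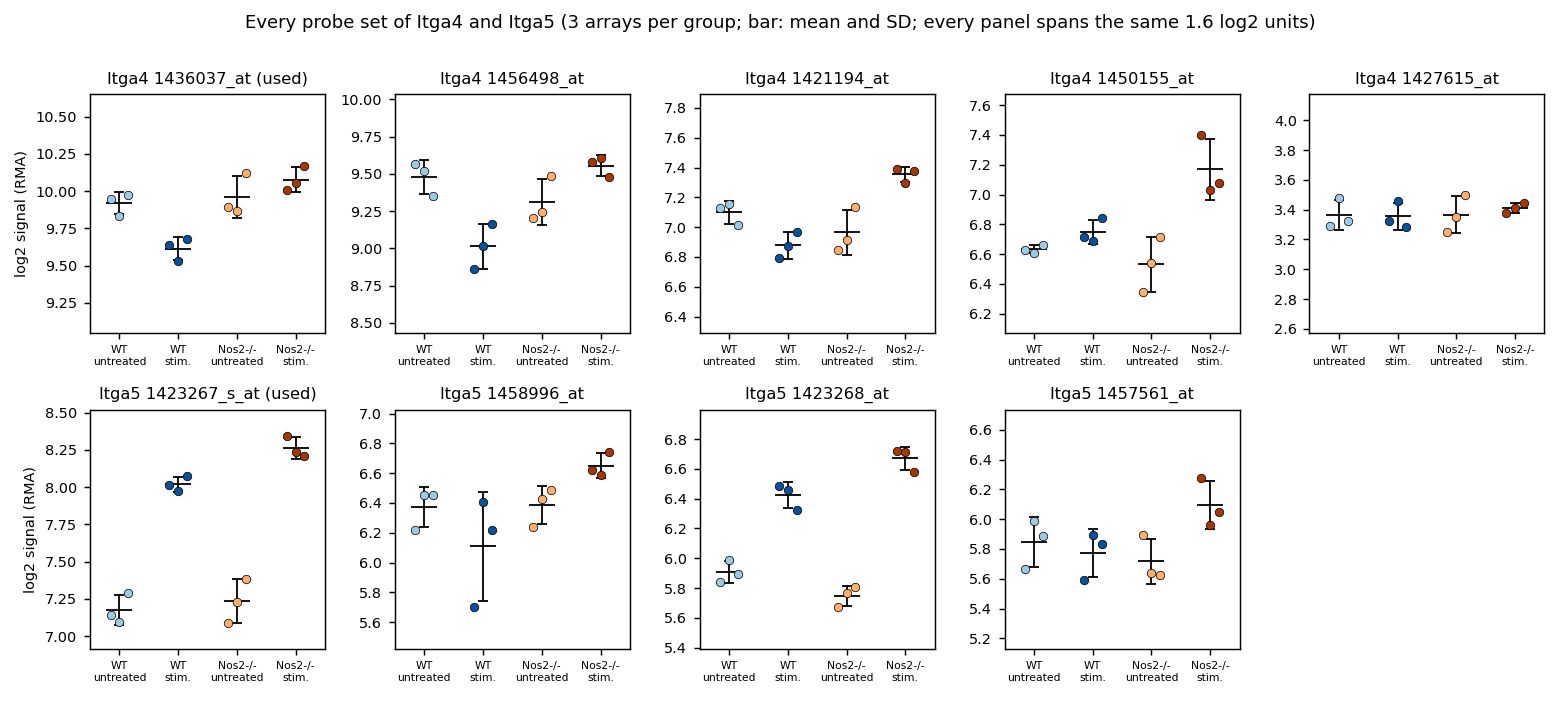
Log2 signal of the 5 Itga4 and the 4 Itga5 probe sets on each array (points, 3 per group) with the group mean and SD (bars); every panel spans 1.6 log2 units. Between the stimulated genotypes 3 Itga4 probe sets and no Itga5 probe set were called, beside 2.59% of all probe sets. Groups that do not overlap in a panel are not thereby called, and the share of all probe sets without overlap was not counted. The panels read the same RNA samples and are not replicates.

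Itga5, the fibronectin receptor chain, rose in both genotypes on its brightest probe set, 1423267_s_at. The WT arrays went from 7.14, 7.10 and 7.29 to 8.01, 7.97 and 8.07. The Nos2-/- arrays went from 7.09, 7.23 and 7.38 to 8.35, 8.23 and 8.21. Untreated genotypes overlapped, and the stimulated ones did not. The rise was 0.84 in WT (SE 0.08, adjusted p = 6.44e-07), or 1.79-fold, and 1.03 in Nos2-/- cells (SE 0.08, adjusted p = 7.39e-08), or 2.04-fold. The difference of 0.24 between the stimulated genotypes (95% confidence interval 0.07 to 0.42) was not called (adjusted p = 0.158), but it was when its probe sets were averaged (adjusted p = 0.0195).

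The other Itga5 probe sets were dimmer and did not all rise. Probe set 1423268_at rose by 0.52 in WT and 0.92 in Nos2-/- cells. Probe sets 1458996_at and 1457561_at gave -0.27 and -0.08 in WT, neither called, and 0.27 (not called) and 0.38 (adjusted p = 0.0128) in Nos2-/- cells. A probe set ending in _s_at may read more than 1 transcript, and when such probe sets were left out 1458996_at stood for the gene, so that the WT rise was no longer seen. With averaged probe sets the responses were 0.25 and 0.65, both called. Between the stimulated genotypes the 4 probe sets differed by 0.24, 0.54, 0.25 and 0.32. By limma 0 of them were called (adjusted p from 0.0659 to 0.191), beside 2.59% of all probe sets. All 4 had an unadjusted p under 0.05, as had 5054 of all 34945 probe sets. These 4 read the same RNA samples and are not replicates.

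Itgb1, the partner of both Itga4 and Itga5, was not called in any comparison. Its group means were 10.74, 10.61, 10.73 and 10.64 in untreated and stimulated WT cells and in untreated and stimulated Nos2-/- cells, in that order. The responses were -0.13 in WT (95% confidence interval -0.27 to 0.02, adjusted p = 0.118) and -0.08 in Nos2-/- cells (-0.23 to 0.06, adjusted p = 0.314). The WT value was called without the first WT stimulated array (-0.18, adjusted p = 0.0479) and after quantile normalization (-0.17, adjusted p = 0.0355). Its second probe set, 1426918_at, at nearly the same brightness, fell by 0.18 in WT (adjusted p = 0.0235), and 3 of its 6 probe sets were dim, with mean signals from 2.97 to 3.19.

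Itgb7, the other partner of Itga4, rose modestly. It read 8.87, 8.83 and 8.91 on WT untreated and 9.32, 9.39 and 9.27 on WT stimulated arrays. It read 8.87, 9.03 and 8.92 on Nos2-/- untreated and 9.28, 9.28 and 9.17 on Nos2-/- stimulated arrays. Stimulated and untreated arrays did not overlap in either genotype. The rise was 0.46 (SE 0.07, adjusted p = 3.45e-05), or 1.37-fold, in WT and 0.30 (SE 0.07, adjusted p = 0.00123), or 1.24-fold, in Nos2-/- cells, and the difference between these was -0.15 (95% confidence interval -0.35 to 0.05, adjusted p = 0.628).

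Itgav, the alpha chain that binds RGD-containing ligands and latent TGF-β, fell more than any other member. It read 12.53, 12.59 and 12.57 on WT untreated and 10.91, 10.97 and 10.89 on WT stimulated arrays. It read 12.48, 12.63 and 12.49 on Nos2-/- untreated and 10.81, 10.96 and 10.70 on Nos2-/- stimulated arrays. The signal fell by 1.64 in WT (SE 0.07, adjusted p = 1.99e-10) and by 1.71 in Nos2-/- cells (SE 0.07, adjusted p = 1.14e-10), to 0.321 and 0.306 of the untreated signal. The genotypes overlapped in both states. Of its other probe sets 1421198_at fell by 0.77 and 0.76, and 1432296_a_at by 0.29 and 0.35, in WT and Nos2-/- cells. The remaining pair, 1432679_at and 1432678_at, had mean signals of 4.04 and 3.97. After stimulation 1432679_at was higher and 1432678_at lower in both genotypes, and only 1432678_at in WT was called (-0.31, adjusted p = 0.0319). With all 5 averaged, Itgav gave -0.55 in each genotype, still called.

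Over the 27 probe sets 6 rose and 10 fell in WT cells, where 54.0% of all probe sets were called, and 10 rose and 5 fell in Nos2-/- cells, where 51.4% were called. Of the 3 Itga4 probe sets that fell in WT cells, 2 rose in Nos2-/- cells and 1 was not called.

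**Figure D4:**
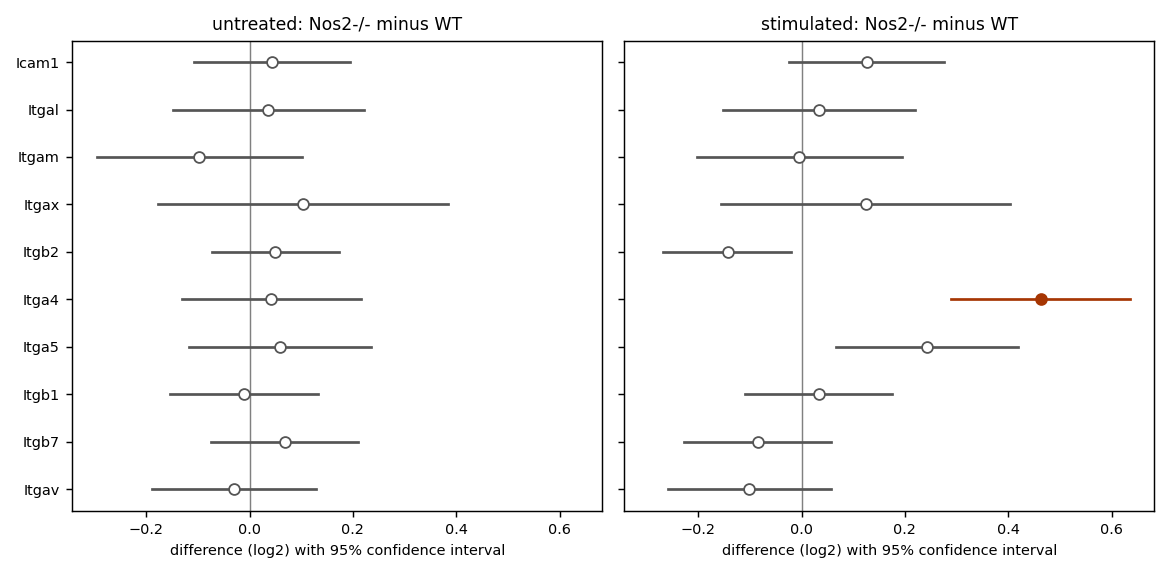
Difference between the genotypes (Nos2-/- minus WT, log2) in untreated and in stimulated cells for the 10 genes, with the 95% confidence interval of the fit; the filled orange point is called after adjustment over all genes. All 10 untreated intervals include 0, and of the stimulated ones those of Itga4, Itga5 and Itgb2 do not, of which Itga4 alone was called.

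The genes whose profile over the 12 arrays was most like that of a member were sought among all genes by the root mean square difference of log2 signals centred on their own mean, a measure that carries no test. For Icam1 the nearest were Lemd2 at 0.045 and Sh3glb1 at 0.049, and for Itgal Map4k4 at 0.086 and Slc25a37 at 0.087. For Itgav they were Rpn1 at 0.057 and Osbpl8 at 0.075, and for Itgax Mmp12 at 0.113 and Rasgef1a at 0.118. For Itga5 they were Supt6 at 0.060 and Pik3r5 at 0.066. For Itga4, which followed no simple on-off pattern, they were Ubtd2 at 0.081 and Txndc11 at 0.097. For Itgb7 they were Pgk1 at 0.041 and Ttc28 at 0.056, and for Itgb2 Mia3 at 0.025 and Nsfl1c at 0.039. For Itgam and Itgb1, which hardly moved, the nearest were Pcdh8 at 0.063 and 4930579K19Rik at 0.070 for the former and B020011L13Rik at 0.038 and Ccl9 at 0.040 for the latter.

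Among the members themselves Itga5 and Icam1 had profiles 0.103 apart, Itgal and Icam1 0.291 apart, and Itgb1 and Itgb2, both nearly flat, 0.087 apart. Itgal and Itgav, the largest rise and the largest fall, were 1.63 apart. The 12 arrays share 4 groups, so these distances mostly describe the response to stimulation, or the lack of one in members that hardly moved. The median distance to all genes was 0.2 for Itgam and 0.881 for Itgav, so distances of different members are not on 1 scale.

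The chains that could pair with the members, their ligands and the proteins that act on them were read from 6 lists with 92 genes, of which 84 were measured. Over the lists 33 genes rose, 23 fell and 28 were not called in WT, and 33 rose, 26 fell and 25 were not called in Nos2-/- cells. Called were thus 56 of the 84 in WT and 59 of the 84 in Nos2-/- cells, where 58.0% and 54.5% of all genes were called. Whether these shares differ was not tested. The median difference was 0.11 and 0.14, beside 0.07 and 0.05 over all genes.

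Of 16 other integrin chains measured, 6 rose and 3 fell in WT cells. In Nos2-/- cells these numbers were 4 and 3 (median 0.21 and 0.17, with 58.0% and 54.5% of all genes called). Itgb8, a beta chain that pairs with Itgav and activates latent TGF-β, went from 3.35 ± 0.13 (SD, n = 3) to 10.18 ± 0.13 in WT and from 3.34 ± 0.21 to 10.55 ± 0.11 in Nos2-/- cells, a difference of 6.84 (SE 0.11, adjusted p = 9.47e-15) and 7.22 (SE 0.11, adjusted p = 7.01e-15). Its untreated signal was near the low end of the arrays, where the lowest value was 2.13, so the size of the change depends on the background of the probes. Itgb5, another partner of Itgav, fell by 2.13 (SE 0.06) in WT and fell by 2.16 in Nos2-/- cells. Itgav thus fell together with Itgb5 while Itgb8 rose. Itga2b, the platelet alpha chain, rose by 0.42 in WT (adjusted p = 0.000404) and gave 0.18 in Nos2-/- cells (adjusted p = 0.0659). Itga9 gave -0.11 in WT (adjusted p = 0.407) and rose by 0.59 in Nos2-/- cells (adjusted p = 0.000341), a call lost without probe sets ending in _s_at and _x_at (0.08), and 0.33 with averaged probe sets. Itga1, a collagen receptor chain that pairs with Itgb1, rose by 1.71 and 1.82 (1.08 and 1.11 with averaged probe sets). Itga8 and Itga6, which also pair with Itgb1, fell by 3.69 and 1.43 in WT and by 3.75 and 1.27 in Nos2-/- cells.

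Of 17 ligands measured, 4 rose and 3 fell in WT cells. In Nos2-/- cells these numbers were 4 and 5 (median 0.10 and -0.01, with 58.0% and 54.5% of all genes called). Vcam1, the ligand of Itga4 with Itgb1, rose from 5.84 to 8.69 in WT and from 5.73 to 8.82 in Nos2-/- cells (2.85, SE 0.11, and 3.09, SE 0.11). Madcam1, the ligand of Itga4 with Itgb7, was dim at 3.92 in untreated WT cells and rose by 0.48 in WT (adjusted p = 0.00531) and 0.42 in Nos2-/- cells (adjusted p = 0.0123). Icam2, a further ligand of LFA-1, fell by 1.63 (SE 0.13) in WT and fell by 1.65 in Nos2-/- cells, whereas Icam1 rose. Thbs1, a matrix protein and ligand of Itgav integrins, rose by 6.36 (SE 0.19) and 6.49, from 6.82 to 13.18 in WT and from 6.68 to 13.17 in Nos2-/- cells. Tgfb1, whose latent form Itgav integrins bind, fell by 0.70 and 0.59 (with averaged probe sets -0.25 and -0.23), and Mfge8, a bridge between Itgav integrins and dying cells, by 0.48 and 0.42. Fga, the fibrinogen alpha chain, was dim and gave 0.02 in WT (adjusted p = 0.849) and rose by 0.23 in Nos2-/- cells (adjusted p = 0.0117), which was lost without the second Nos2-/- stimulated array (adjusted p = 0.0531).

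**Figure D5:**
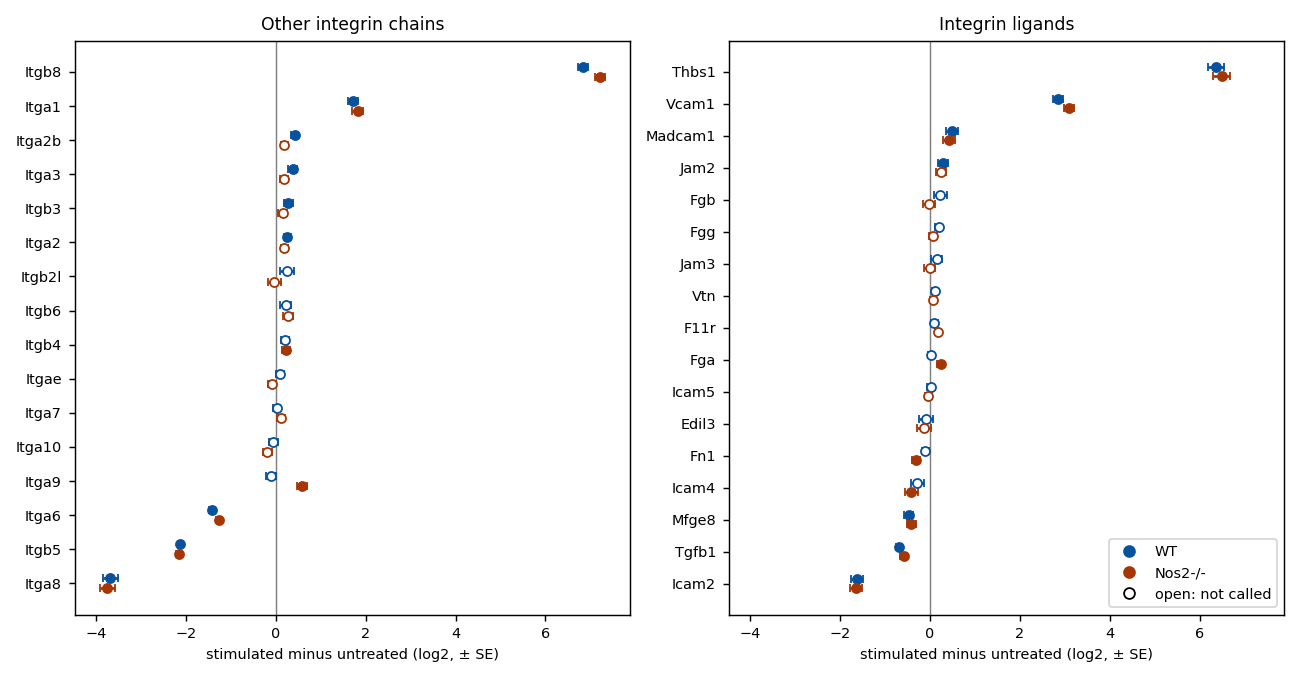
Response to LPS and IFNγ (stimulated minus untreated, log2, with the SE of the fit) of the 16 other integrin chains and 17 integrin ligands measured, in WT (blue) and Nos2-/- cells (orange), ordered by the WT value; open points were not called. Itgb8 and Thbs1 rose by more than any other gene shown in either genotype, and Itga8 fell the most.

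Of 17 genes that activate or restrain integrins from inside the cell, WT cells had 6 higher and 4 lower after stimulation. Nos2-/- cells had 6 higher and 5 lower (median 0.05 and 0.13, with 58.0% and 54.5% of all genes called). Rassf5, an adaptor that carries active Rap1 to LFA-1, fell by 1.09 (SE 0.08) and 0.98, and Apbb1ip, the Rap1 effector that recruits talin, fell by 0.66 and 0.67. Flna, which competes with talin for beta chain tails, fell by 0.57 and 0.66. Cyth1, which binds the Itgb2 tail, rose by 0.79 and 0.71. Cytip, a cytohesin partner, rose by 0.46 and 0.25, and Fermt3, the leukocyte kindlin, by 0.27 and 0.45. Tln2, a talin, rose by 0.33 in WT and gave 0.17 in Nos2-/- cells (adjusted p = 0.095), and the dim Skap1 rose by 0.36 in Nos2-/- cells (0.18 and not called with averaged probe sets) and gave 0.21 in WT (adjusted p = 0.0896). After quantile normalization Apbb1ip gave -0.38 and -0.39.

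Of 20 genes for signaling below integrins and for adhesion sites, 9 rose and 9 fell in WT cells. In Nos2-/- cells these numbers were 10 and 8 (median 0.01 and 0.19, with 58.0% and 54.5% of all genes called). The kinases Src and Syk, which signal from engaged integrins, rose by 2.26 and 1.85 in WT and by 2.68 and 2.00 in Nos2-/- cells. Src gave 1.25 in WT and 1.57 in Nos2-/- cells without probe sets ending in _s_at and _x_at. Zyx, a protein of mature adhesion sites, rose by 1.77 and 1.81. Parvg, the leukocyte parvin, fell by 1.88 and 1.75, and Parvb by 1.02 and 0.97 (with averaged probe sets -0.49 and -0.55). Vcl, which links talin to actin, fell from 7.92 ± 0.07 (SD, n = 3) to 6.36 ± 0.14 in WT and from 7.97 ± 0.07 to 6.91 ± 0.03 in Nos2-/- cells, by 1.56 (SE 0.08) and 1.06 (SE 0.08).

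Of 9 membrane partners and anchors of ICAMs, 5 rose and 3 fell in WT cells. In Nos2-/- cells these numbers were 5 and 4 (median 0.36 and 0.37, with 58.0% and 54.5% of all genes called). Ezr, which ties Icam1 to actin, rose by 1.86 (SE 0.08) and 1.93, while its relative Rdx fell by 1.03 and 0.89. Cd47, a partner of integrins, rose by 0.48 and 0.53. With averaged probe sets Cd47 was 0.08 (not called, adjusted p = 0.359) and 0.22, and Ezr 1.09 and 1.11. Slc3a2, which binds beta chain tails, rose by 0.55 and 0.37, and Msn, the third of the Ezr family, by 0.36 and 0.43. The tetraspanins Cd9 and Cd81 fell by 1.19 and 0.54 in WT and by 1.27 and 0.84 in Nos2-/- cells. Of 5 selectins, selectin ligands and other adhesion receptors, 3 rose and 1 fell in WT cells. In Nos2-/- cells these numbers were 4 and 1 (median 0.38 and 0.34, with 58.0% and 54.5% of all genes called). Cd44, the hyaluronan receptor, fell by 1.25 in each genotype, and Pecam1 rose by 1.64 and 1.49. Selp and its ligand Selplg rose by 0.88 and 0.38 in WT and by 0.68 and 0.34 in Nos2-/- cells, and Selp gave 0.51 in WT with averaged probe sets. Endothelial cells and platelets carry Pecam1 and Selp as well. Of 4 endothelial markers 2 rose in each genotype, Kdr among them by 1.26 and 1.35, with 58.0% (WT) and 54.5% (Nos2-/-) of all genes called. Their summed linear signal was 152 to 157 on WT untreated, 293 to 302 on WT stimulated, 149 to 164 on Nos2-/- untreated and 278 to 371 on Nos2-/- stimulated arrays. Cdh5, Tek and Tie1 lay between 3.89 and 5.13 in log2 signal. Of 4 measured megakaryocyte markers 1 rose and 1 fell in each genotype, beside the same shares of all genes. Ppbp differed by -1.24 between the stimulated genotypes (Nos2-/- minus WT, adjusted p = 0.0105), where 2.94% of all genes were called. The part of such cells in these values was not tested.

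Between the stimulated genotypes 3 of the 84 genes were called (2.94% of all genes), and for the difference between the responses 1 of 84 (0.978% of all). Between the untreated genotypes 0 of 84 were called by limma (0.0110% of all). There 4 of the 84, and 728 of all 18193 genes, had an unadjusted p under 0.05. Vcl was higher in stimulated Nos2-/- cells by 0.55 (SE 0.08, adjusted p = 0.000899) and Actn1, an actin crosslinker at adhesion sites, by 0.26 (SE 0.06, adjusted p = 0.0335), a call that was lost when any of 10 of the 12 arrays, all but the third of each Nos2-/- group, was left out (adjusted p up to 0.104) and in a model of only the arrays compared (adjusted p = 0.217). Cd81 was lower by 0.37 (SE 0.07, adjusted p = 0.00669), although not called in a model of only the arrays compared (adjusted p = 0.0807). The difference between the responses was called for Vcl alone (0.50, SE 0.11, adjusted p = 0.046), and this call was lost when any of 11 of the 12 arrays, all but the third of WT stimulated, was left out (adjusted p up to 0.138), in a linear model without moderation (adjusted p = 0.0973), with arrays centred on their medians (adjusted p = 0.0531) and with averaged probe sets (0.38, adjusted p = 0.13).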

How the data were processed

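RNA of 12 BMDM samples was hybridized to Affymetrix Mouse Genome arrays, 1 per sample. The authors deposited log2 values made with RMA in Partek (versions not stated in the sources used here), which corrects background, quantile normalizes and summarizes the probes of a probe set, and which tends to compress changes of dim probe sets. Array medians ran from 5.14 to 5.21 and values from 2.13 to 14.7, and arrays of a group correlated at 0.996 or above. Of 45101 probe sets, 64 controls were left out, and 34945 of the other 45037 name 1 gene, 932 several and 9160 none. They gave 18193 genes, each represented by its probe set of highest mean. The number of arrays limits the precision, as arrays give no counts.

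Groups came from the labels. The moderated linear model of limma 3.58.1 (R 4.3.3) had a mean for each of the 4 groups and no replicate block, and was fitted to all genes and then to all 34945 probe sets, with two-sided tests. A difference was called where its p, adjusted by Benjamini-Hochberg over the whole table, was under 0.05, whatever its size. The procedure was tested on simulated data. The thresholds printed in the methods (1.5-fold, false discovery rate of 0.5) were tried as an alternative, and the alternatives for single probe sets and pathway genes were added after seeing the data. Marker sums add linear signals. Positions and promoters are from RefSeq for GRCm38.p6, where 8 members had a promoter entry. Python 3.11.15 with matplotlib 3.10.9 drew the figures.

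The members and lists were chosen with earlier results of these data known. The rule for names took all members, from each of 6 pathway lists up to 3 called genes with the largest rise and up to 3 with the largest fall whose groups did not overlap in a comparison, and the 2 genes nearest to each member. Marker lists of B cells, of mast cells and basophils, of stroma and of megakaryocytes had summed linear signals of 112 to 130, 74 to 83, 105 to 114 and 288 to 330 on untreated and 120 to 143, 79 to 90, 137 to 154 and 256 to 338 on stimulated arrays.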

Additional observations from a re-analysis of the deposited data

Results flagged for a closer look

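The responses of the genotypes differed by the test of the difference itself, a contrast of the limma model adjusted over all probe sets, for 2 probe sets of Itga4. For 1456498_at the Nos2-/- response exceeded the WT response by 0.71 in log2 signal (adjusted p = 0.027) and for 1421194_at by 0.61 (adjusted p = 0.027), while 1436037_at, the brightest probe set of Itga4, gave 0.42 and was not called (adjusted p = 0.159). Among the pathway lists the same test, adjusted over all genes, called Vcl, which fell less in Nos2-/- than in WT cells by 0.50 (adjusted p = 0.046). All 3 calls were lost in a linear model without moderation and when most single arrays were left out, as the report gives.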

How the results depend on the processing

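The number of members called in the 2 responses to stimulation stayed within 1.5 times of 7 under every alternative, from 5 to 9 in WT and from 5 to 8 in Nos2-/- cells. Between the stimulated genotypes the 1 call became 0 with the thresholds of the methods (1.5-fold with a false discovery rate under 0.5), 2 with an intensity trend in eBayes, which added Itgb2 (adjusted p = 0.0346), and 2 when the probe sets of a gene were averaged, which added Itga5 (adjusted p = 0.0195). The difference of Itga4 there was 0.39 to 0.50 under all alternatives, with an adjusted p from 0.000456 to 0.0308, and was below 1.5-fold in each. For the difference between the responses the 0 calls became 1, Itga4, with the intensity trend and with the mean of all probe sets. Leaving out each array in turn left these numbers at 1 and at 0. Between the untreated genotypes 0 members were called under all alternatives. Of the pathway genes, the 3 called between the stimulated genotypes became 5 without genes below the median signal, 5 with averaged probe sets and 1 in a model of only the arrays compared, and the 1 call for the difference between the responses became 0 to 2. Averaging, quantile normalization or omission of the _s_at and _x_at probe sets moved further called values by over 1.5 times, as given beside them. Averaging also ended the calls of Cd47 in WT (0.08) and Skap1 in Nos2-/- cells (0.18) and added Itga4 in Nos2-/- cells (adjusted p = 0.00305).

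Of the single values that changed sign, 1 had been called, the WT response of Itga5, which was -0.26 (adjusted p = 0.126) without probe sets ending in _s_at and _x_at, where the Nos2-/- response fell to 0.27 (adjusted p = 0.13). The others were uncalled differences near 0. Between the stimulated genotypes Itgam became 0.01 with arrays centred on their medians and Itgal -0.05 with the mean of all probe sets. Between the untreated genotypes the mean of all probe sets gave -0.02 for Itgal, -0.07 for Itga4 and -0.06 for Itga5. In the difference between the responses Itgax became -0.01 with quantile normalization, Itgal 0.01 with centred arrays and Itgav 0.00 with the mean of all probe sets. Leaving out each array in turn gave ranges that included 0 for further uncalled values. Between the stimulated genotypes these were -0.09 to 0.12 for Itgam, -0.01 to 0.11 for Itgal and -0.02 to 0.08 for Itgb1. Between the untreated genotypes they were -0.05 to 0.20 for Itgax, -0.03 to 0.09 for Itgal, -0.04 to 0.09 for Itga4, -0.02 to 0.13 for Itga5, -0.03 to 0.01 for Itgb1 and -0.01 to 0.08 for Icam1. In the difference between the responses they were -0.09 to 0.17 for Itgax, -0.06 to 0.08 for Itgal, 0.00 to 0.09 for Itgb1 and 0.00 to 0.12 for the dim Itga4 probe set. Quantile normalization and centring moved the median of all genes by no more than 0.057, and the cause of these changes was not tested. Dim probe sets limit what can be read for Itgb8, Madcam1, Pecam1, Selp, Itga1, Itga8 and the faint probe sets of Itga4, Itgav and Itgb1. In untreated WT cells mean signals were 4.21 for Pecam1, 4.38 for Selp and 4.43 for Itga1. Itga8 was at 4.29 in stimulated WT cells.

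Same-numbered arrays showed little shared deviation from their group means. In 18 pairs of groups and numbers the correlations ran from -0.26 to 0.211, and 2 were above 0.1, both between the untreated genotypes. Arrays of different numbers were not compared, so these values do not show pairing by number and cannot exclude it. With the replicate number as a block 7 and 7 members were called in the responses, 1 between the stimulated genotypes and 0 in the other comparisons, as without it. The difference between the responses was then no longer called for Itga4 probe set 1456498_at (adjusted p = 0.0589) and Vcl (adjusted p = 0.0501), and the Itga5 probe set 1458996_at was called between the stimulated genotypes (adjusted p = 0.0262).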
